A study of Mus musculus with 12 samples.

Results

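The genes described here are 31 genes of the hypoxia response and of glycolysis, from a list chosen with earlier results of these data known. They were matched by symbol with a rule that uses no measured value. They were looked up among the Ensembl identifiers of a raw count table that lists 49671 genes, and each of the 31 was found. All 31 also passed the filter on low counts that left 17812 genes for testing. The group holds 2 oxygen-sensing transcription factor subunits, 11 genes known to be induced by hypoxia, 2 lactate transporters and 16 enzymes of glycolysis and lactate metabolism.

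The study sequenced RNA of 12 mouse brain samples that had been fixed in formalin and embedded in paraffin, 3 in each of 4 groups. The groups are tumours labelled IDH1_R132H (a mutant form of isocitrate dehydrogenase 1), tumours labelled IDH1WT (the wild-type enzyme), tumours labelled PDGFA (a platelet-derived growth factor chain) and normal brain. Every tumour-bearing mouse carried the N::TVA transgene, which gives cells a receptor for avian viruses, with homozygous floxed alleles that include Cdkn2a and Atrx. The normal brains came from mice of the same floxed genotype that lacked TVA. Whether PDGFA was also delivered to the tumours with an IDH1 label is not stated, nor are age, batch, litter, pairing or whether the samples of a group came from separate animals. The p-values measure the spread between these samples only. The series set out to determine the subtype of the tumours, and comparisons between tumour genotypes and with normal brain follow from that design.

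Cells sense oxygen through hypoxia-inducible factors (HIFs), each made of an alpha subunit, such as the products of Hif1a and Epas1, and a stable partner encoded by Arnt. When oxygen is plentiful, prolyl hydroxylases of the Egln family use oxygen and 2-oxoglutarate to mark the alpha subunit for destruction, so that HIF activity is set mostly at the protein level and not by the RNA of the alpha subunits. In hypoxia the factor binds short DNA elements and induces genes for blood vessel growth, pH control, mitophagy and glycolysis. Mutant IDH1 turns 2-oxoglutarate into 2-hydroxyglutarate, a molecule that acts on enzymes of the same family. In glioma, hypoxic zones are known to lie near necrosis, where genes such as Vegfa and Adm are induced.

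Total counts ran from 6507923 to 14277395 per library. In the IDH1_R132H 3 library a single ribosomal-RNA-like locus, Gm42418, took 35.6% of the count, against 0.218% to 0.855% in the other 11 libraries. PDGFA tumour 1 lay among the normal brains on the first principal component, which took 48.2% of the variance over the 2000 most variable genes. Its position was 45.5, against 42.3 to 45.8 in the normal brains and −42.5 to 2.81 in the other tumours. Levels are given as CPM, read counts per library size scaled with TMM factors, and counts of changed genes are given with and without these 2 libraries.

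The HIF core element reads ACGTG or GCGTG. Both strands of the RefSeq promoter windows on GRCm38.p6, 250 bases before to 50 bases after a start site, were searched for it. RefSeq held 43 windows for 29 of the 31 genes, and Epas1 and Ndrg1 had none (Ero1l is listed there as Ero1a). At least 1 core lay in 35 of the 43 windows (81.4%), and in 43.8% of all 32851 windows. At least 2 places held a core in 26 windows (60.5%), and in 17.3% of all windows. Both cores contain the dinucleotide CG, and the comparison was not adjusted for base composition. The 4 windows below belong to the called genes of the comparison with normal brain that have a window. They lie at chr7:110627407-110627706 (plus strand) for Adm, chr10:59951721-59952020 (minus strand) for Ddit4, chr11:31370012-31370311 (minus strand) for Stc2 and chr3:104638414-104638713 (plus strand) for Slc16a1. Each is printed 5′ to 3′ on the strand of its gene, with every core on either strand in capitals (CACGT and CACGC are the cores of the opposite strand).
Adm: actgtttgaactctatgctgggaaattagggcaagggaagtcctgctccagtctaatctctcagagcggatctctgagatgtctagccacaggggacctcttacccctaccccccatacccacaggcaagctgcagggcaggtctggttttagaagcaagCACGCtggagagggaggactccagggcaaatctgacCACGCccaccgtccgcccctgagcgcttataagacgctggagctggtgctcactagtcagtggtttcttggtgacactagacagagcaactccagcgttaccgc
Ddit4: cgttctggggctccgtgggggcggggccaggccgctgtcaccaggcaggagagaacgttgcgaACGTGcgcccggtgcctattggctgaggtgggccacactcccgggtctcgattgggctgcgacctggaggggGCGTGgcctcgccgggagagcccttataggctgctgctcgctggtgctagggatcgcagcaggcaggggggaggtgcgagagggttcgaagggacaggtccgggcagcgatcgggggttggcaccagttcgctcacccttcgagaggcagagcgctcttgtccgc
Stc2: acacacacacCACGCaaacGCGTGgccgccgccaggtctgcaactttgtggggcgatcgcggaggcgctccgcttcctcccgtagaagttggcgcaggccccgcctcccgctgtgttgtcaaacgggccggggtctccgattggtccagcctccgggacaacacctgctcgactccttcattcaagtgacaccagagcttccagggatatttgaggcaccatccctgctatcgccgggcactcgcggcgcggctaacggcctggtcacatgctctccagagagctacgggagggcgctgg
Slc16a1: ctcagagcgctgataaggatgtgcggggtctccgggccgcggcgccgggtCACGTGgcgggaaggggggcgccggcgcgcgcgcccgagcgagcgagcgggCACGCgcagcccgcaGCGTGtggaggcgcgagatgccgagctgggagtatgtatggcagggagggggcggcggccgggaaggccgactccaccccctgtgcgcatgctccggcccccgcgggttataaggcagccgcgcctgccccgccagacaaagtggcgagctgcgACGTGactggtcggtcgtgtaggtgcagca
Adm, Ddit4 and Stc2 each hold 2 places with a core and Slc16a1 holds 4, of which CACGTG reads as a core on both strands. A match in these letters does not show that a factor bound there.

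**Figure D1:**
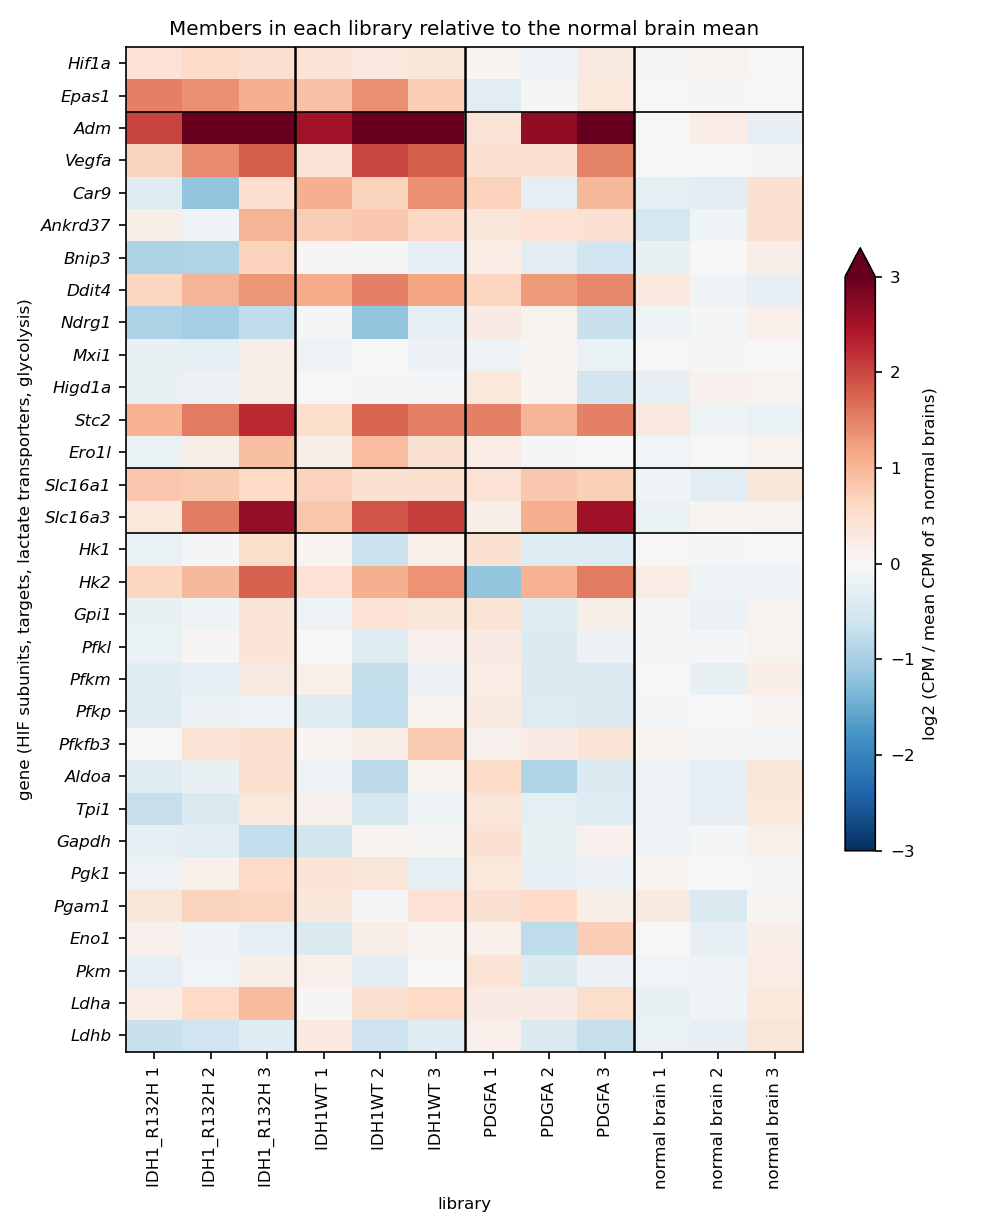
Each cell gives the log2 ratio of a gene's TMM-scaled CPM in a library (columns, by tumour genotype and then normal brain) to its mean over the 3 normal brains. Genes run in rows from the HIF subunits through hypoxia targets and lactate transporters to glycolysis. The Adm, Vegfa, Ddit4, Stc2, Slc16a1 and Slc16a3 rows are above every normal brain in all 9 tumours, and most glycolysis rows are pale in every column.

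Tumours, averaged with equal weight over the 3 genotypes, were compared with normal brain first. By role, 1 of 2 HIF subunits, 3 of 11 hypoxia targets, 1 of 2 lactate transporters and 0 of 16 glycolytic genes passed the test, all higher in tumours, and the difference between roles was not tested. At an edgeR quasi-likelihood adjusted p under 0.05, 5 of the 31 genes rose and 0 fell: Adm, Stc2, Ddit4, Epas1 and Slc16a1. Of all tested genes 5.22% were called in this comparison, 3.71% higher and 1.5% lower. The median log2 fold change of the 31 genes was 0.14, against −0.01 over all tested genes. Without adjustment 10 of the 31 genes had p under 0.05, as did 23.6% of all tested genes. In bulk tissue a change in the number of cells that express a gene and a change in RNA per cell cannot be told apart.

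Epas1 (chromosome 17, 86753700 to 86833410 on GRCm38) encodes HIF-2 alpha, the subunit abundant in endothelial cells and linked in human glioma to stem-like cells. It stood at 395, 356 and 287 CPM in IDH1_R132H tumours 1 to 3 and at 254, 358 and 229 CPM in IDH1WT tumours. It stood at 110, 134 and 171 CPM in PDGFA tumours, against 140, 134 and 140 CPM in normal brains. All 6 tumours with an IDH1 label thus lay above every normal brain, while the PDGFA tumours lay on both sides of them. Over all tumours the log2 fold change of Epas1 was 0.78 (SE 0.18), and the gene rose (edgeR adjusted p = 0.031). Hif1a (chromosome 12, 73901375 to 73947530), the broadly expressed alpha subunit, showed a smaller difference. Its level was 124, 136 and 130 CPM in IDH1_R132H tumours, 121, 112 and 118 CPM in IDH1WT tumours and 95.3, 83.6 and 111 CPM in PDGFA tumours, against 87.8, 96.5 and 90.9 CPM in normal brains. The tumour difference of 0.31 (SE 0.11) did not pass (edgeR adjusted p = 0.12).

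Adm (chromosome 7, 110627661 to 110629820) encodes adrenomedullin, a vasodilating peptide hormone, and had the highest fold change of the 31 genes. It stood at 3.82, 7.53 and 16.4 CPM in IDH1_R132H tumours, 5.37, 19 and 13 CPM in IDH1WT tumours and 1.23, 5.89 and 14.7 CPM in PDGFA tumours, against 0.924, 1.1 and 0.788 CPM in normal brains. Every tumour lay above every normal brain, although PDGFA tumour 1 did so by little. The normal values rest on 8, 10 and 9 reads, and those of tumours on 11 to 162 reads. Adm rose 9.94-fold (log2 3.31, SE 0.77, edgeR adjusted p = 0.032).

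Stc2 (chromosome 11, 31357307 to 31370074), a secreted glycoprotein of the stanniocalcin family, was also scarce. It stood at 3.27, 4.68 and 7.5 CPM in IDH1_R132H tumours, 2.32, 5.37 and 4.52 CPM in IDH1WT tumours and 4.58, 3.23 and 4.53 CPM in PDGFA tumours, against 1.96, 1.43 and 1.4 CPM in normal brains. The groups did not overlap, and Stc2 rose by 1.45 (SE 0.35, edgeR adjusted p = 0.035). Ddit4 (chromosome 10, 59949669 to 59951834) encodes REDD1, an inhibitor of mTORC1 induced by hypoxia and other stresses. Its level was 22.9, 29.7 and 36.7 CPM in IDH1_R132H tumours, 31.8, 41.3 and 32.9 CPM in IDH1WT tumours and 22.7, 35.6 and 39.9 CPM in PDGFA tumours, against 18, 13.5 and 12.3 CPM in normal brains. Ddit4 rose by 1.15 (SE 0.21, edgeR adjusted p = 0.017), the smallest adjusted p among the 31 genes.

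Vegfa (chromosome 17, 46016993 to 46032369), the main ligand of blood vessel growth, was above every normal brain in all 9 tumours but did not pass. Its level was 78.9, 134 and 175 CPM in IDH1_R132H tumours, 66.1, 200 and 173 CPM in IDH1WT tumours and 68.4, 68.1 and 139 CPM in PDGFA tumours, against 50.6, 50 and 48.9 CPM in normal brains. The log2 difference was 1.27 (SE 0.35, edgeR adjusted p = 0.056), and DESeq2 gave an adjusted p of 0.0031. The other 7 targets had log2 differences between −0.47 and 0.50 and overlapped the normal brains. They are Car9 (carbonic anhydrase IX, pH control), Ankrd37, Bnip3 (a mitophagy receptor), Ndrg1 (also abundant in oligodendrocytes), Mxi1 (an antagonist of Myc), Higd1a (a mitochondrial protein) and Ero1l (an oxidase of the endoplasmic reticulum). Car9, often used as a marker of hypoxia in human tumours, was near the limit of detection, with 3 to 22 reads per library.

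**Figure D2:**
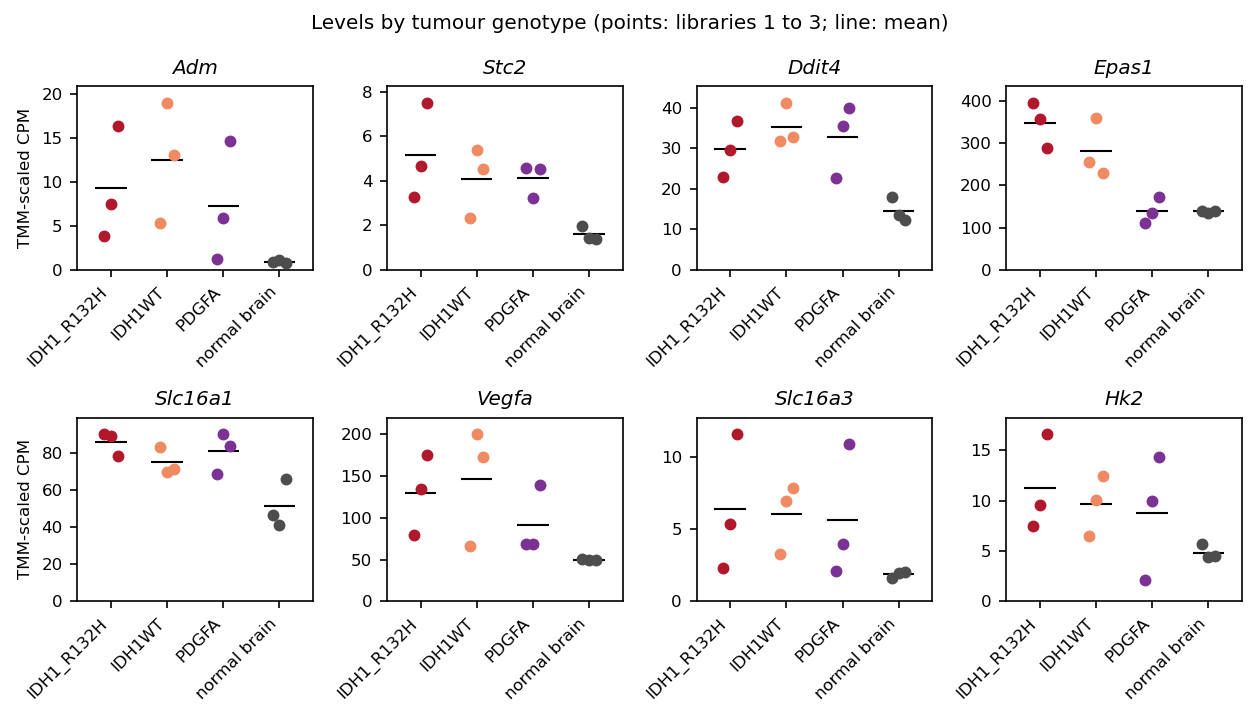
TMM-scaled CPM (vertical axes, each starting at 0) of 8 genes in IDH1_R132H, IDH1WT and PDGFA tumours and in normal brain, with a point for each of the 3 libraries of a group and a line at the mean. Epas1 is near the normal level of 134 to 140 CPM in PDGFA tumours and above it in all IDH1_R132H and IDH1WT tumours, and Hk2 in 1 PDGFA tumour (2.12 CPM) is below every other library.

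On TMM-scaled CPM both lactate transporters were above every normal brain in all 9 tumours, and 1 of the 2 passed. Slc16a1 (chromosome 3, 104638668 to 104658462) encodes MCT1, which carries lactate in either direction. It stood at 90.2, 89 and 78.2 CPM in IDH1_R132H tumours, 83.4, 70 and 71.5 CPM in IDH1WT tumours and 68.9, 90.1 and 84 CPM in PDGFA tumours, against 46.7, 41.2 and 66.2 CPM in normal brains. On TMM-scaled CPM Slc16a1 varied little among tumours (1.31-fold from lowest to highest, SD 8.75 CPM). On plain library totals that SD was 20.8 CPM. IDH1_R132H tumour 3 had 396 reads of 10019818 and normal brain 3 had 756 of 11731050, so their order depends on the scaling. Slc16a1 rose by 0.65 (SE 0.16, edgeR adjusted p = 0.035). Slc16a3 (chromosome 11, 120948480 to 120960868) encodes MCT4, the exporter of glycolytic cells. It stood at 2.32, 5.39 and 11.6 CPM in IDH1_R132H tumours, 3.31, 6.95 and 7.9 CPM in IDH1WT tumours and 2.12, 3.98 and 10.9 CPM in PDGFA tumours, against 1.62, 1.98 and 2.01 CPM in normal brains. Its log2 difference of 1.67 (SE 0.57) was larger but more variable and did not pass (edgeR adjusted p = 0.098). Together, on this scale 6 of the 31 genes had tumour values wholly above the normal ones (4.67% of tested genes did). Values lay wholly below for 0 of the 31 (2.84% of tested genes).

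Of the 16 glycolytic genes 0 passed in this comparison and their median log2 fold change was −0.01, with a range of −0.33 to 1.02. Without adjustment 2 of them, Hk2 and Ldha, had p under 0.05 in edgeR, DESeq2 called 0 and limma voom called 4 (Hk2, Ldha, Pfkfb3 and Pgam1), where limma voom called 6005 genes in the whole table. Their summed level was 1358 to 2359 CPM in tumours, against 1622 to 2112 CPM in normal brains. Hk2 (chromosome 6, 82725025 to 82774454), the hypoxia-induced hexokinase, was at the top of the range. It stood at 7.5, 9.56 and 16.6 CPM in IDH1_R132H tumours, 6.49, 10.1 and 12.4 CPM in IDH1WT tumours and 2.12, 10 and 14.3 CPM in PDGFA tumours, against 5.66, 4.39 and 4.46 CPM in normal brains. Of the 9 tumours 8 lay above the normal brains and PDGFA tumour 1 lay below them, and the difference of 1.02 (SE 0.45) did not pass (edgeR adjusted p = 0.19). Ldha, which makes lactate from pyruvate, stood at 75.2, 97 and 124 CPM in IDH1_R132H tumours, 65.4, 88.7 and 97.5 CPM in IDH1WT tumours and 76.1, 76 and 92.7 CPM in PDGFA tumours, against 54.4, 58.3 and 79.1 CPM in normal brains. Its groups overlapped and its difference was 0.45 (SE 0.18, edgeR adjusted p = 0.15). Pfkfb3, which makes the activator of phosphofructokinase, differed by 0.31 (SE 0.16) and Pgam1 by 0.41 (SE 0.21), while Hk1, Gpi1, Pfkl, Pfkm, Pfkp, Aldoa, Tpi1, Gapdh, Pgk1, Eno1 and Pkm lay between −0.22 and 0.14.

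The calls rested on few libraries. Without any 1 of the normal brains 0 of the 31 genes were called, and 0, 1 and 3 genes of the whole table were called without normal brains 1, 2 and 3. The count was 1 (Ddit4) without IDH1_R132H tumour 2, among 367 genes called in the whole table. It was 3 among 598 without IDH1WT tumour 3, and 8 among 2536 without PDGFA tumour 1. The last fit added Vegfa (edgeR adjusted p = 0.025), Slc16a3 (0.035) and Hk2 (0.02). Without both IDH1_R132H 3 and PDGFA 1 the count was 9, among 2928. These included Hk2 (log2 1.05, edgeR adjusted p = 0.013) and, lower in tumours, Bnip3 (−0.48, adjusted p = 0.047). Across the single-library omissions the log2 fold changes of the 5 called genes kept their sign.

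**Figure D3:**
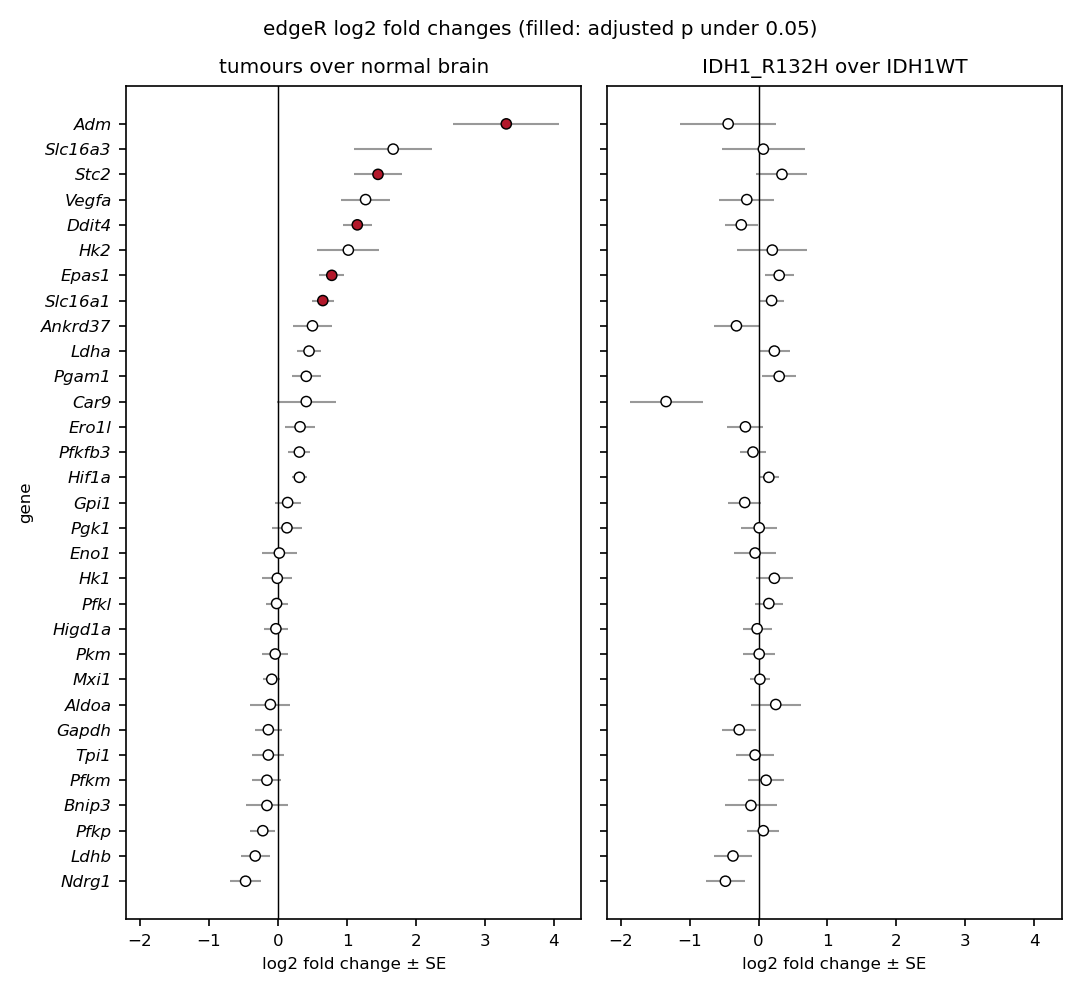
Log2 fold change with its standard error from edgeR (horizontal axes) of the 31 genes (rows), for tumours over normal brain (left) and IDH1_R132H over IDH1WT tumours (right); filled points have an adjusted p under 0.05. The 5 filled points are Adm, Stc2, Ddit4, Epas1 and Slc16a1 on the left, with 0 filled on the right, where Car9 lies farthest from 0 at −1.34.

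Each tumour genotype was also compared with normal brain, and these comparisons share the same 3 normal brains. In IDH1_R132H tumours 6 of the 31 genes rose and 0 fell, against 7.17% of tested genes called (4.83% higher, 2.35% lower). They were Hif1a (log2 0.50, SE 0.14, edgeR adjusted p = 0.044), Epas1 (1.32, SE 0.21, adjusted p = 0.014) and Adm (3.27, SE 0.85, adjusted p = 0.038), with Ddit4 (1.02, SE 0.25, adjusted p = 0.031), Stc2 (1.67, SE 0.40, adjusted p = 0.031) and Slc16a1 (0.74, SE 0.18, adjusted p = 0.033). Without the low count filter edgeR no longer called Hif1a (adjusted p = 0.41) or Slc16a1 (0.063). Hif1a was also not called by edgeR without IDH1_R132H tumour 1, 2 or 3 (adjusted p = 0.075, 0.18 and 0.091). DESeq2 (adjusted p = 0.0022) and limma voom (0.00045) did call Hif1a. Other tools also called genes lower in IDH1_R132H tumours. Ndrg1 (log2 −0.91, SE 0.28, edgeR adjusted p = 0.063) was called lower by DESeq2 (adjusted p = 0.026), by limma voom (0.00053), by edgeR without the low count filter (0.0019) and by edgeR when IDH1WT tumour 2, PDGFA tumour 1 or PDGFA tumour 3 was left out. Limma voom, which called 7320 genes in that comparison, also called Bnip3 (adjusted p = 0.0084) and Ldhb (0.028) lower. In IDH1WT tumours 3 rose and 0 fell, against 1.72% of tested genes (1.57% higher). They were Epas1 (1.02, SE 0.21, edgeR adjusted p = 0.036), Adm (3.71, SE 0.84, adjusted p = 0.047) and Ddit4 (1.27, SE 0.25, adjusted p = 0.029). In PDGFA tumours 0 of the 31 genes were called, against 0.303% of tested genes (0.258% higher), with 6 at an unadjusted p under 0.05 in edgeR, 3 called by DESeq2 (Adm, Ddit4 and Slc16a1), 2 by limma voom with sample weights and 0 by limma on the deposited log2 values.

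Every value lay above every normal brain for 10 of the 31 genes in IDH1_R132H tumours (19.4% of tested genes), for 12 in IDH1WT tumours (17.4%) and for 7 in PDGFA tumours (8.23%). Every value lay below for 4 genes in IDH1_R132H tumours (18.8% of tested genes), for 0 in IDH1WT tumours (14.5%) and for 0 in PDGFA tumours (7.54%).

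Side by side, the 3 comparisons with normal brain gave similar log2 values for some genes and not for others. Ddit4 gave 1.02 in IDH1_R132H, 1.27 in IDH1WT and 1.17 in PDGFA tumours, and Slc16a1 gave 0.74, 0.55 and 0.66 in the same order. Epas1 gave 1.32, 1.02 and 0.00, and Hif1a gave 0.50, 0.35 and 0.08. Ndrg1 gave −0.91, −0.43 and −0.05, and Car9 gave −0.31, 1.03 and 0.51. PDGFA tumour 1 lay among the normal brains on the first component. Without it edgeR called 3 of the 31 genes in PDGFA tumours, among 828 genes of the whole table. They were Ddit4 (1.37, edgeR adjusted p = 0.0076), Adm (3.45, adjusted p = 0.015) and Slc16a1 (0.76, adjusted p = 0.045). Without IDH1_R132H 3 and PDGFA 1 together edgeR called 6 of the 31 genes in IDH1_R132H, 6 in IDH1WT and 5 in PDGFA tumours, among 2167, 1300 and 970 genes of the whole table. The 6 in IDH1_R132H tumours are not the 6 named above, since Bnip3 was lower (−0.93, edgeR adjusted p = 0.016) and Stc2 was no longer called (adjusted p = 0.052). Without any 1 of the normal brains edgeR called 0 in each, and at most 1 gene of the whole table. The IDH1_R132H count was 0 without IDH1_R132H tumour 2, 1 without IDH1_R132H tumour 3 and 3 without IDH1WT tumour 3. These stood among 1, 854 and 953 genes of the whole table. The IDH1WT count was 0 without IDH1WT tumour 2, IDH1WT tumour 3 or IDH1_R132H tumour 2, among 0, 0 and 140 genes. It was 1 without IDH1_R132H tumour 1 or PDGFA tumour 2, among 161 and 218 genes. It was 5 without IDH1WT tumour 1, among 687 genes.

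Between mutant and wild-type IDH1 tumours no difference in the 31 genes passed any test that was run. In IDH1_R132H against IDH1WT tumours 0 of 31 genes were called, and 0% of all tested genes. By edgeR 1 of the 31 had an unadjusted p under 0.05, and DESeq2, limma voom and limma on the deposited log2 values called 0. The median log2 difference was 0.01 over the 31 genes, and the role groups ranged from −0.37 to 0.30 for glycolysis and from −1.34 to 0.34 for hypoxia targets. A difference that misses the threshold is not evidence of equal levels, as standard errors were 0.70 for Adm, 0.40 for Vegfa and 0.60 for Slc16a3.

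Car9 had the smallest p of the 31 in that comparison. It stood at 0.545, 0.305 and 0.987 CPM in IDH1_R132H tumours (4, 3 and 5 reads), against 1.46, 1.1 and 1.79 CPM in IDH1WT tumours (22, 9 and 19 reads). The groups did not overlap, and the log2 difference was −1.34 (SE 0.53, unadjusted p = 0.025, edgeR adjusted p = 1). Hif1a was the only gene of the 31 wholly higher in IDH1_R132H than in IDH1WT tumours, by 0.15 (SE 0.14, edgeR adjusted p = 1), where 2.96% of tested genes were wholly higher and 3.79% wholly lower. Ndrg1 stood at 36.1, 34.8 and 41.1 CPM in IDH1_R132H tumours, against 67.1, 31 and 57.7 CPM in IDH1WT tumours, and Ldhb at 65.6, 69.3 and 80.5 CPM, against 128, 67.9 and 81 CPM. Both pairs of groups overlapped, with log2 differences of −0.48 (SE 0.28) for Ndrg1 and −0.37 (SE 0.27) for Ldhb, neither called by edgeR (adjusted p = 1 for each).

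Between tumours with an IDH1 label and PDGFA tumours, Epas1 had the smallest p of the 31 genes. In IDH1_R132H against PDGFA tumours edgeR called 0 of the 31 genes and 0% of all tested genes, with 4 of the 31 at an unadjusted p under 0.05. Epas1 lay wholly higher in IDH1_R132H tumours, by 1.32 (SE 0.21, unadjusted p = 4e-05, edgeR adjusted p = 0.22), a 2.5-fold ratio. DESeq2 called Epas1 (log2 1.33, adjusted p = 2.1e-05), among 146 genes of the whole table, as did limma voom (1.39, adjusted p = 0.0076), among 396. EdgeR without PDGFA tumour 3 also called it (1.49, adjusted p = 0.045), among 43 genes. EdgeR without IDH1_R132H 3 and PDGFA 1 gave 1.30 with an adjusted p of 0.13. Hif1a was also wholly higher, by 0.43 (SE 0.14, edgeR adjusted p = 0.35, limma voom adjusted p = 0.045). Ndrg1 was wholly lower, at 36.1, 34.8 and 41.1 CPM in IDH1_R132H tumours, against 83.4, 76 and 44.3 CPM in PDGFA tumours (log2 −0.86, SE 0.28, edgeR adjusted p = 0.35), and passed in limma voom (adjusted p = 0.044) and in edgeR without the low count filter (0.012). Gapdh was wholly lower too, at 8.45, 8.14 and 6.12 CPM in IDH1_R132H tumours, against 14, 8.7 and 11.1 CPM in PDGFA tumours (−0.56, SE 0.25, edgeR adjusted p = 0.44). Wholly higher genes made up 5.86% of tested genes in this comparison and wholly lower ones 7.25%.

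In IDH1WT against PDGFA tumours edgeR called 0 of 31 genes, and 0% of all tested genes, with 1 of the 31 at an unadjusted p under 0.05. The Epas1 difference was 1.02 (SE 0.21, unadjusted p = 0.00039, edgeR adjusted p = 0.81), and DESeq2 called it (adjusted p = 0.0092) while limma voom did not (adjusted p = 0.49). Epas1, Hif1a and Ankrd37 were wholly higher in IDH1WT than in PDGFA tumours, as were 4.32% of tested genes. In IDH1_R132H against the mean of IDH1WT and PDGFA tumours edgeR again called 0 of 31 genes, and 0% of all tested genes, with 4 of the 31 at an unadjusted p under 0.05. The log2 difference of Epas1 was 0.81 (SE 0.18, edgeR adjusted p = 0.49), and DESeq2 gave an adjusted p of 0.021. Hif1a was the only gene of the 31 wholly higher in IDH1_R132H tumours there, as were 1.01% of tested genes. Beside these values, markers of oligodendrocyte precursors had a summed level of 3135 to 6601 CPM in IDH1_R132H tumours and 2149 to 6524 CPM in IDH1WT tumours, against 539 to 4190 CPM in PDGFA tumours. Endothelial markers summed to 253 to 295 CPM in IDH1_R132H tumours and 286 to 378 CPM in IDH1WT tumours, against 217 to 334 CPM in PDGFA tumours, with all 12 genes detected. The part of either cell type in the Epas1 difference was not tested.

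Several hypoxia targets varied widely within each tumour genotype. Adm averaged 9.24 ± 6.45 CPM in IDH1_R132H, 12.5 ± 6.84 CPM in IDH1WT and 7.27 ± 6.83 CPM in PDGFA tumours (SD, n = 3 each). Among the 9 tumours Adm spanned 15.5-fold, Hk2 7.8-fold, Slc16a3 5.48-fold and Vegfa 3.02-fold. Without PDGFA tumour 1 the span of Adm was 5-fold (3.82 to 19 CPM) and that of Hk2 2.6-fold (6.49 to 16.6 CPM). The SD of log2 CPM among tumours was 1.2 for Adm (percentile 98.1 of tested genes), against a median of 0.357 over the 31 genes and 0.372 over all tested genes. On TMM-scaled CPM the same 4 tumours, IDH1_R132H 3, IDH1WT 2, IDH1WT 3 and PDGFA 3, held the 4 highest values of Adm, Vegfa, Slc16a3 and Hk2. IDH1_R132H 3 had 889 reads of Vegfa and 84 of Hk2 among 10019818. IDH1_R132H 2 had 1318 and 94 among 9132783, so the place of IDH1_R132H 3 in this set depends on the scaling. On the same scale these 4 tumours also had the highest summed mitosis genes, at 405, 569, 448 and 798 CPM in that order. The other 5 tumours had 120 to 289 CPM, and the part of dividing cells was not tested. This set of 4 was picked after its values were seen and gets no test. The same 4 tumours were the highest for 385 tested genes (2.16%), and 126 sets of 4 tumours are possible. At the other end, PDGFA tumour 1 was the lowest tumour for Adm, Slc16a3, Hk2, Epas1, Ddit4 and Slc16a1. The same tumour was the highest for Ndrg1, Aldoa, Tpi1, Gapdh, Pfkp, Pkm and Higd1a. Its summed glycolytic level, 2359 CPM, was the highest of any library on TMM-scaled CPM. As a share of the total count it was 0.209%, the same as in IDH1WT tumour 3. Markers of oligodendrocyte precursors in PDGFA tumour 1 summed to 539 CPM, against 501 to 527 CPM in normal brains. Its mitosis genes summed to 120 CPM, against 11 to 16.7 CPM. Its astrocyte markers summed to 1042 CPM, against 4849 to 5137 CPM, and its microglial markers to 31.2 CPM, against 100 to 175 CPM.

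Isoenzyme and transporter pairs were set against each other within a library as ratios of CPM per kilobase of exon. The lactate dehydrogenase subunits Ldha and Ldhb favour the making and the use of lactate in their tetramers. Their ratio was 0.544, 0.664 and 0.73 in IDH1_R132H tumours, 0.242, 0.619 and 0.571 in IDH1WT tumours and 0.313, 0.467 and 0.686 in PDGFA tumours, against 0.282, 0.313 and 0.283 in normal brains. Of 9 tumours 8 lay above the normal brains, PDGFA tumour 1 by less than the rounding of these values, and IDH1WT tumour 1 lay below them. The Hk2 to Hk1 ratio was 0.0658, 0.0757 and 0.088 in IDH1_R132H tumours, 0.0478, 0.12 and 0.0859 in IDH1WT tumours and 0.0119, 0.0994 and 0.144 in PDGFA tumours, against 0.0428, 0.0345 and 0.0336 in normal brains. Again 8 tumours lay above the normal range, the exception being PDGFA tumour 1. The Slc16a3 to Slc16a1 ratio exceeded the normal brains in 5 tumours, the Pfkl to Pfkm ratio in 4 and the Pfkp to Pfkm ratio in 1. Hk1 was higher than Hk2 and Ldhb higher than Ldha, per kilobase, in every library. The length used is that of all annotated exons of a gene merged, 3310 bases for Ldha and 1570 for Ldhb. The order of Ldha and Ldhb depends on it. In CPM without length scaling Ldha (75.2, 97 and 124) was above Ldhb (65.6, 69.3 and 80.5) in IDH1_R132H tumours. It was below Ldhb in normal brains (54.4, 58.3 and 79.1, against 91.3, 88.2 and 133), and IDH1WT and PDGFA tumours went both ways.

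**Figure D4:**
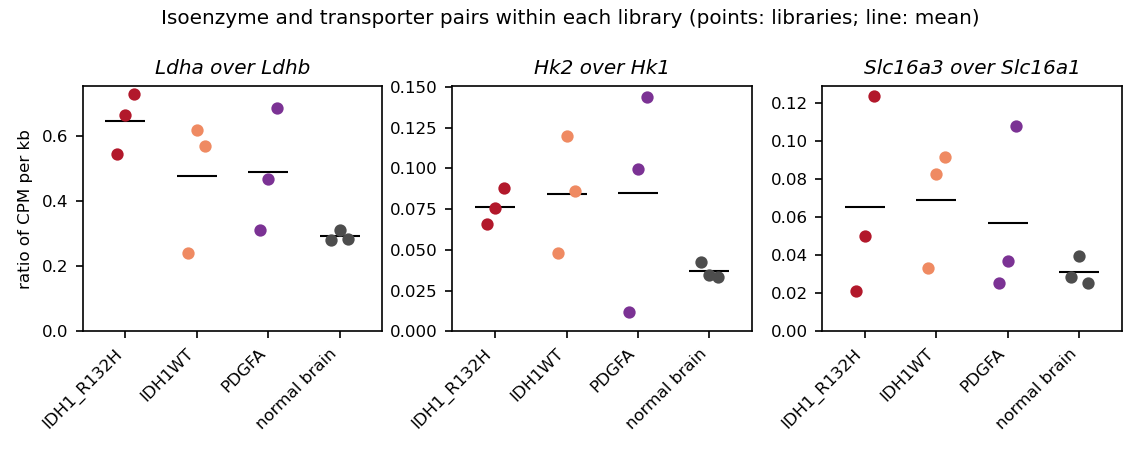
Ratio of CPM per kilobase of exon (vertical axes from 0) within each library for Ldha over Ldhb, Hk2 over Hk1 and Slc16a3 over Slc16a1, by tumour genotype and in normal brain, with a point per library and a line at the mean of 3. The IDH1_R132H points for Ldha over Ldhb (0.544 to 0.73) lie above the normal points (0.282 to 0.313), and each of the other tumour groups has 1 point at 0.313 or lower.

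Several of the 31 genes share sequence with other annotated genes, and their counted levels are uncertain to that extent. In the transcripts of GENCODE M21, 53.9% of the 50-base words of Pgk1, 47.2% of those of Bnip3, 36.2% of those of Pgam1, 26% of those of Eno1, 25.8% of those of Pkm and 25.1% of those of Gapdh also occur in another annotated gene. For Gapdh these are 233 other genes, of which 215 are pseudogenes. Its counted level was 2.46 ± 0.242 CPM per kilobase in normal brains (SD, n = 3), against 129 ± 32.7 for Aldoa, an earlier enzyme of the pathway. How reads that match several places were counted is not given in the sources used here, and its part in these levels was not tested. Pkm and Ldhb, which also share over 20%, were counted at 41.1 and 66.3 CPM per kilobase. Of the 31 genes 8 shared over 20% of their words, and 7 shared none (Adm, Ddit4, Epas1, Hk2, Slc16a1, Slc16a3 and Stc2), which include all 5 genes called over all tumours. For Hif1a, Car9, Ndrg1, Higd1a, Hk1 and Pfkm the other gene that shares the most words is an antisense gene. Only this top gene was looked at for each of the 31. Without a stated strand setting reads of a gene and of its antisense gene cannot be told apart.

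**Figure D5:**
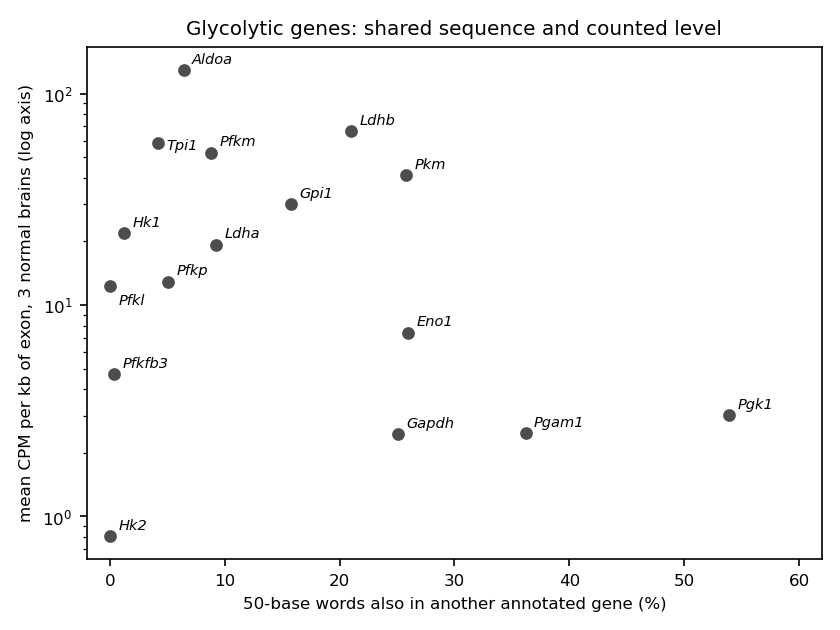
Share of a gene's 50-base words that also occur in another annotated gene (horizontal axis, percent) and mean CPM per kilobase of exon in the 3 normal brains (vertical log axis) for the 16 glycolytic genes. Pgk1, Pgam1 and Gapdh combine shares of 25.1% to 53.9% with levels of 2.46 to 3.02 CPM per kilobase, while Aldoa, Tpi1 and Pfkm share 4.18% to 8.83% and lie at 52.6 to 129 CPM per kilobase. Other genes run the opposite way, with Pkm (25.8%) at 41.1, Ldhb (21%) at 66.3, Pfkfb3 (0.376%) at 4.73 and Hk2 (0%) at 0.81 CPM per kilobase.

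Other genes of the same pathways were taken from lists written from general knowledge. Their counts are to be read against the 3.71% of all tested genes that were called higher and 1.5% that were called lower in tumours. Of 13 regulators of HIF, 1 rose in tumours and 0 fell, a share near that background. This was Egln3, the hypoxia-induced prolyl hydroxylase, at 15.6 ± 5.68 CPM in tumours (SD, n = 9), against 7.7 ± 0.555 CPM in normal brains (SD, n = 3), a log2 difference of 0.97 (SE 0.25, edgeR adjusted p = 0.043). In IDH1_R132H tumours Egln3 rose by 1.27 (edgeR adjusted p = 0.026) and Vhl, the ligase subunit that recognises hydroxylated HIF, by 0.66 (adjusted p = 0.039), while Egln2 fell by 0.61 (adjusted p = 0.029). Of 29 further HIF targets 4 rose in tumours and 2 fell. Among the risers were Hmox1 (haem oxygenase, log2 3.59, SE 0.95, edgeR adjusted p = 0.049), Loxl2 (a collagen cross-linking enzyme, 3.33, SE 0.78, adjusted p = 0.033) and Cxcr4 (a chemokine receptor, 2.77, SE 0.42, adjusted p = 0.012). P4ha2, a collagen prolyl hydroxylase, fell by 0.77 (SE 0.16, edgeR adjusted p = 0.021) and Ak4, a mitochondrial adenylate kinase, fell by 0.60 (SE 0.15, adjusted p = 0.038). The median over the 29 was 0.34. Of 25 tested further genes of glycolysis and its branches 2 rose, Pgd of the pentose phosphate pathway (0.74, SE 0.16, edgeR adjusted p = 0.025) and Bpgm, which makes 2,3-bisphosphoglycerate (0.58, SE 0.13, adjusted p = 0.028), and the median was −0.05. Of 15 stress-response genes 1 rose, again near the background, Atf3 (1.64, SE 0.40, edgeR adjusted p = 0.038). None of these 4 lists had a called gene in any comparison between tumour genotypes, where edgeR with the low count filter called 0 genes in the whole table. Without that filter it called 278 genes for IDH1_R132H against the other tumours, 79 against IDH1WT and 627 against PDGFA, and 261 for IDH1WT against PDGFA.

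Markers of some cell types also differed between tumours and normal brain, and those of others did not pass. Of 12 endothelial markers 6 rose in tumours, where their summed level was 217 to 378 CPM, against 161 to 189 CPM in normal brains. Of 10 markers of oligodendrocyte precursors 9 rose (539 to 6601 CPM in tumours, against 501 to 527 CPM in normal brains), and of 10 mitosis genes 9 rose (120 to 798 CPM, against 11 to 16.7 CPM). Of 10 astrocyte markers 1 rose, Gfap, with sums of 1042 to 6298 CPM in tumours, against 4849 to 5137 CPM in normal brains. Of 12 neuronal, 12 microglial and 6 red blood cell markers edgeR called 0. Neuronal sums were 2492 to 6704 CPM in tumours, against 5369 to 5802 CPM in normal brains, microglial sums 31.2 to 401 CPM, against 100 to 175 CPM, and red blood cell sums 24.6 to 1023 CPM, against 114 to 220 CPM. No marker of these lists was at 0 in every library. The part of these cell types in the changes of Epas1, Adm, Stc2, Ddit4 and Slc16a1 was not tested.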

How the data were processed

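The 31 genes, the other lists and the rule for naming genes were chosen with earlier results of these data known. The rule names the 31 genes, in full where they were called or had 1 of the 4 smallest p-values of a comparison, and at most 5 called genes of each other list per comparison; the values of Slc16a3, Hk2 and Ldha, the 4 tumours high for Adm and the ranges of the rest were added after seeing the values. A gene that the rule takes is not reported here.

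The deposited table holds raw read counts per gene, made by the authors with STAR 2.5.2b, Subread and featureCounts 1.5.1 on GRCm38, per the submitters' processing notes, which also name DESeq2 1.16.1. Not given in the sources used here are the annotation, the strand setting and the handling of multi-mapped reads. A second table holds log2 values that the authors deposited as rlog, used only as an alternative. GENCODE M21 named 49326 of 49671 genes.

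Counts were filtered with filterByExpr (minimum count 10, minimum total 15), scaled with TMM and fitted with robust quasi-likelihood in edgeR 4.0.16 (R 4.3.3) with 1 coefficient per group over 12 libraries (8 residual degrees of freedom). Comparisons numbered 8. Adjusted p-values are Benjamini-Hochberg values over all 17812 genes, called under 0.05 with no fold minimum. Without another tool named they are from edgeR. TMM assumes that most genes do not change. A biological coefficient of variation of 26.5% was fitted, with a median SE of a log2 fold change of 0.23 (tumours against normal brain) and 0.286 (IDH1_R132H against IDH1WT). Normal brains 1 and 2 were closer (chi-square per gene 2.5) than other normal pairs (28.4 and 27.6) but differed beyond sampling noise and were kept as separate samples. The procedure was tested on simulated counts. Alternatives were RLE factors, DESeq2 1.42.0, no filter, limma 3.58.1 on the log2 values, limma voom with sample weights, only the groups compared, leaving out IDH1_R132H 3 and PDGFA 1 together, leaving out each library, and CPM on plain totals. Replicate numbers follow record order and only name libraries.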

Additional observations from a re-analysis of the deposited data

Results flagged for a closer look

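Among the 9 tumours Hk2 in PDGFA tumour 1 stood apart from the rest. The gap to the next tumour was 0.535 of the whole range of log2 CPM, above Dixon's 95% critical value for that number of values. Its level was 2.12 CPM, against 6.49 to 16.6 CPM in the other tumours and 4.39 to 5.66 CPM in normal brains. This was the only flag among the 31 genes. The rule was applied to each of them and chance flags about 1 in 20 such groups, so a single flag is expected by chance.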

How the results depend on the processing

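Among the 31 genes, the number called for all tumours against normal brain was 5 and became 8 without the low count filter, 8 with DESeq2, 14 with limma voom with sample weights, and 9 without IDH1_R132H 3 and PDGFA 1. For IDH1_R132H against normal brain it was 6 and became 8 without the filter, 9 with DESeq2 and 5 with limma on the deposited log2 values. It became 14 there with limma voom and 10 with only the groups compared. For IDH1WT against normal brain it was 3 and became 5 without the filter, 5 with DESeq2, 1 with limma on the deposited log2 values, 11 with limma voom, 5 with only the groups compared and 6 without both libraries. For PDGFA against normal brain it was 0 and became 5 without the filter, 3 with DESeq2, 2 with limma voom and 5 without both libraries. Between tumour genotypes it was 0 throughout and became 1 (no filter), 1 (DESeq2) and 1 (limma voom) for IDH1_R132H against the other tumours, 2, 1 and 3 for IDH1_R132H against PDGFA, and 1 (no filter) and 1 (DESeq2) for IDH1WT against PDGFA. Over all genes those settings gave 278, 24 and 245 calls for IDH1_R132H against the other tumours. They gave 627, 146 and 396 for IDH1_R132H against PDGFA, and 261 (no filter) and 12 (DESeq2) for IDH1WT against PDGFA. The number of the 31 genes called stayed 0 for IDH1_R132H against IDH1WT under every alternative run. Leaving out 1 library at a time gave 0 to 8 for all tumours, 0 to 9 for IDH1_R132H, 0 to 5 for IDH1WT and 0 to 3 for PDGFA against normal brain, 0 to 1 for IDH1_R132H against PDGFA, and 0 for the other comparisons between tumours. Over all genes, tumours against normal brain gave 929 calls, 2204 without the filter, 2084 with DESeq2, 6005 with limma voom and 2928 without both libraries. IDH1_R132H against normal brain gave 1278 calls, 2468 without the filter, 2438 with DESeq2 and 1208 on the log2 values. It gave 7320 with limma voom and 3319 with only the groups compared. IDH1WT gave 307, 1555 without the filter, 1272 with DESeq2, 113 on the log2 values, 3008 with limma voom, 1426 with only the groups compared and 1300 without both libraries, and PDGFA gave 54, 958 without the filter, 484 with DESeq2, 436 with limma voom and 970 without both libraries. No fold change of a called gene changed sign, and the causes of these differences were not tested. RLE factors moved the median gene by at most 0.01 on the log2 scale. No paired analysis was possible because the labels pair no samples across groups and the replicate numbers follow record order. Depth limits Car9 (3 to 22 reads) and Adm in normal brain (8 to 10 reads) most.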
